A study of Mus musculus with 8 samples.

Results

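The genes described here encode the machinery that stores transmitter in presynaptic vesicles and fuses those vesicles with the plasma membrane. They were chosen by symbol alone: the numbered synaptotagmins (Syt), synapsins (Syn), syntaxins (Stx), Vamp and Snap genes, Sv2 proteins, complexins (Cplx), Unc13 and Rims genes, Rab3 genes, synaptogyrins (Syngr) and Syp. This gave 68 of the 19558 genes measured, with 315 of 74764 transcripts. The symbols also bring in 20 SNAREs not counted here among the release SNAREs. They are labelled SNAREs of other membranes below, and the label does not mean that none acts at the plasma membrane. Snap91 is included too, which shares a name with the Snap family but encodes a clathrin assembly protein.

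Both groups were wild-type mice of the strain C57BL/6 KP at postnatal day 40, dosed through the nose under anesthesia. One group received KU55933, a small-molecule blocker of the DNA damage kinase ATM, and the other received saline with 4% DMSO as vehicle. The dose in the labels is 7.5 mg/kg and the labels count 4 mice in each group, while the interval from dosing to tissue collection is not stated in them. Polyadenylated RNA of the hippocampus was sequenced with a strand-marking kit, in 8 libraries of 34190440 to 46630341 estimated counts. The comparison asks how the mRNAs of the release machinery differ in the hippocampus when ATM is blocked in an otherwise normal animal.

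At a central synapse, vesicles filled with transmitter dock at the active zone, are primed, and fuse when calcium enters. Fusion is driven by SNARE proteins on the vesicle (synaptobrevin, encoded by Vamp genes) and on the plasma membrane (syntaxin-1 and SNAP-25), which zip into a common bundle. Synaptotagmins sense the calcium, complexins hold and then aid the SNARE bundle, Munc13 proteins (Unc13 genes) and RIM proteins (Rims genes) prime and place the vesicles, and Rab3 and synapsins bind the vesicle surface. Levels are given as CPM, counts scaled to the normalised library size, for comparisons of 1 gene between libraries, and as TPM, which also divides by transcript length, for comparisons between genes. A gene was called where edgeR's quasi-likelihood test gave a Benjamini-Hochberg adjusted p under 0.05 over all tested genes, and "rose" and "fell" are used of called genes alone.

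Of the 68 genes, 65 were abundant enough to be tested, and Stx11, Vamp9 and Cplx4 were not. Of the 65, 6 rose in KU55933, 5 fell and 54 were not called by edgeR. Among all 15481 genes tested 21.6% were called, 6.92% higher and 14.6% lower, so the share of called release genes, 16.9%, lay near that of genes in general. Their median log2 change was 0.00 against 0.01 for all genes, and 22 had an unadjusted p under 0.05. The 2 groups did not overlap in 14 of the 65 genes, against 26.7% of all genes. The rises rested on most of the libraries: edgeR called 0 higher without vehicle 3, 1 without vehicle 2 or 4 or KU55933 1 or 2, and 2 without KU55933 3. The falls numbered 3 without vehicle 2 or 4 and 8 without KU55933 4. Together the 68 genes took 1.73% ± 0.039 of all counts in vehicle and 1.74% ± 0.088 in KU55933 (SD, n = 4 per group). In bulk tissue, fewer cells of a type and less RNA per cell cannot be told apart.

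A trend across genes separated the groups and bears on every value that follows. The log2 level of each gene in a library, relative to its mean over the 8 libraries, was fitted against GC content. The slope per 10 percentage points of GC, which is thus relative to the other libraries, was 0.136, 0.196, 0.273 and 0.26 in vehicle 1 to 4. In KU55933 1 to 4 it was -0.279, -0.348, -0.117 and -0.12. All vehicle slopes were above all KU55933 slopes, so this trend and the treatment cannot be told apart in these 8 libraries. When an offset removed the trend of each library with GC and with transcript length, edgeR called 0 of the 65 genes, 11 had an unadjusted p under 0.05, and 1.97% of all genes were called (0.672% higher and 1.29% lower). Without vehicle 1 as well, the offset fit called 3 of the 65, Rims3, Rims4 and Unc13c, all higher. KU55933 1 and 2 also stood apart in 10 marker genes of the choroid plexus, the epithelium that secretes cerebrospinal fluid. Their summed level was 1216 and 1284 CPM there, against 85.3 and 70.7 CPM in KU55933 3 and 4 and 60.7 to 125 CPM in vehicle. Markers of dentate granule, CA1 and CA3 with CA2 pyramidal neurons were measured in every case, with none at 0 counts, and their summed levels overlapped between the groups. Of these markers edgeR called 2 of 6, 2 of 5 and 3 of 6 lower and 0 higher, with median log2 changes of -0.22, -0.26 and -0.16, and with the offset it called 0 in each list. Among all genes 14.6% were called lower. Falls were also called in 2 of 6 markers each of interneurons, astrocytes and endothelium with mural cells, and in 1 of 6 of microglia. In those lists 0 were called higher, and of 8 general neuron markers 2 were lower and 2 higher. With the offset, 1 astrocyte marker and 1 general neuron marker were called lower. The part of all these markers in the release genes was not tested. Without KU55933 1 and 2, edgeR called 0 release genes higher and 3 lower, Syt3, Rab3a and Syt5.

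**Figure D1:**
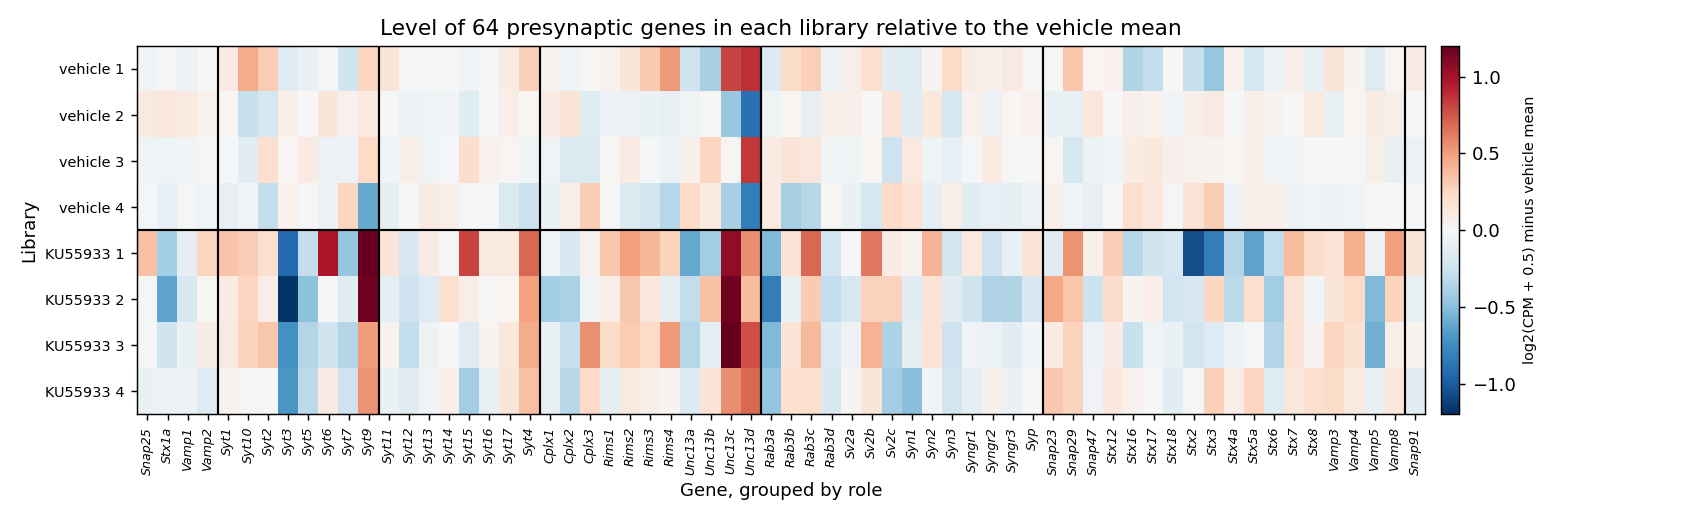
Level of 64 of the 65 tested genes (columns, grouped by role in the order release SNAREs, calcium-binding synaptotagmins, other synaptotagmins, priming and clamping factors, vesicle proteins, SNAREs of other membranes and Snap91) in the 8 libraries (rows). Colour is log2(CPM + 0.5) minus the vehicle mean, saturated at 1.2 in either direction; Syt3 and Rab3a are lower in all 4 KU55933 libraries, while the columns of Snap25, Vamp2 and Syp stay pale in most libraries.

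Of the 5 SNAREs that carry out vesicle fusion, edgeR called 0 in either direction, against 21.6% of all genes. Snap25 and Vamp2 were among the most abundant mRNAs of the hippocampus. Vamp2 ranked 61 among all genes by TPM, but Vamp1 ranked 1746 and Stx1a 1926. Snap25, the SNAP-25 gene, had the highest level per length of the 68 genes, 2260 ± 95.5 TPM in vehicle and 2400 ± 303 TPM in KU55933 (SD, n = 4 per group), and ranked 26 among all genes. Its normalised level was 1889, 2098, 1873 and 1932 CPM in vehicle 1 to 4 and 2479, 1912, 1910 and 1841 CPM in KU55933 1 to 4. The groups overlapped, and KU55933 1 alone stood above every vehicle library. The log2 change of Snap25 was 0.06 (95% confidence interval -0.15 to 0.28) with all libraries and -0.05 without KU55933 1.

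Vamp2, the main synaptobrevin gene of the forebrain, had 1046, 1078, 1057 and 1015 CPM in vehicle and 1258, 1067, 1114 and 945 CPM in KU55933, a log2 change of 0.06 (interval -0.13 to 0.25). Vamp1, the synaptobrevin gene best known from the spinal cord and brainstem, had a log2 change of -0.11 (interval -0.26 to 0.03). The intervals of these genes leave room for small differences either way, and they do not show that the levels were equal. Stx1a, a syntaxin-1 gene, lay closest to the threshold of the 5. It had 94.9, 103, 90.5 and 87.3 CPM in vehicle and 70.7, 60.4, 79.1 and 89.5 CPM in KU55933, so that only KU55933 4 reached the vehicle range. Its log2 change was -0.32 ± 0.11 (SE, adjusted p = 0.06 by edgeR), and 0.18 ± 0.09 with the GC and length offset.

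Synaptotagmins held the largest rise and the largest fall. Of the 8 members that bind calcium through their C2 domains, Syt9 rose and Syt3 and Syt5 fell, with a median log2 change of 0.14. The share called was 37.5%, against 21.6% of all genes. Syt3, which encodes a high-affinity calcium sensor, had 62, 72.8, 70.2 and 71.8 CPM in vehicle 1 to 4 and 35.9, 30.3, 41.6 and 42.3 CPM in KU55933 1 to 4. Every KU55933 library was well below the lowest vehicle library. Syt3 thus fell 1.84-fold, from 69.2 ± 4.90 to 37.5 ± 5.60 CPM (mean ± SD of 4 libraries each). The log2 change was -0.88 ± 0.11 (SE, adjusted p = 0.00064 by edgeR), and the call held with any single library left out, with adjusted p up to 0.00352. Syt3 was also the gene richest in GC of the 65, at 60.4%, and with the GC and length offset its log2 change was -0.16 ± 0.07 (adjusted p = 0.317 by edgeR).

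Syt5, another synaptotagmin gene of this class, had 96.8, 102, 109 and 101 CPM in vehicle and 83.9, 72.3, 80 and 81.7 CPM in KU55933. The groups did not overlap, and Syt5 fell 1.29-fold, at a log2 change of -0.36 ± 0.07 (SE, adjusted p = 0.00624 by edgeR). With the offset the sign turned, to 0.08 ± 0.07, at a GC content of 57.4%.

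Syt9, a fast calcium sensor for release in some forebrain neurons, was scarce, at 5.03 TPM in vehicle. It had 7.92, 7.17, 7.87 and 4.16 CPM in vehicle 1 to 4 and 31.9, 15.4, 9.55 and 9.81 CPM in KU55933 1 to 4. All KU55933 libraries were above all vehicle libraries, but KU55933 1 was far above the rest and KU55933 2 next to it. Syt9 rose 2.45-fold (log2 change 1.29 ± 0.40 SE, adjusted p = 0.0495 by edgeR). The call was lost without any 1 vehicle library and without KU55933 1 or 2 (adjusted p up to 0.136), and the log2 change was 0.77 without KU55933 1. KU55933 1 and 2 were also the libraries with choroid plexus markers at 1216 and 1284 CPM, against 125 CPM at most elsewhere, and the part of those markers in the Syt9 values was not tested. Unlike those of Syt3 and Syt5, the log2 change of Syt9 was nearly the same with the GC and length offset, 1.24 ± 0.40 (SE). It was not called there (adjusted p = 0.186 by edgeR). At 49.7%, the GC content of Syt9 was near the median of all tested genes, 50.3%. From 45 to 50% GC the offset moved the median log2 change of all genes only from 0.12 to 0.01. The small shift of Syt9 thus says little about its call.

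The promoters of the gene that fell most and the gene that rose most among those called are shown for reference, since Syt3 and Syt9 lie on the same chromosome and moved in opposite directions. They run from 250 bases before to 50 after the annotated start and come from RefSeq on GRCm38.p6, not the authors' build. Capitals mark the GC box GGGCGG or its complement, a site bound by Sp family factors.
Syt3 promoter, chr7:44383876-44384175, plus strand, lower in KU55933: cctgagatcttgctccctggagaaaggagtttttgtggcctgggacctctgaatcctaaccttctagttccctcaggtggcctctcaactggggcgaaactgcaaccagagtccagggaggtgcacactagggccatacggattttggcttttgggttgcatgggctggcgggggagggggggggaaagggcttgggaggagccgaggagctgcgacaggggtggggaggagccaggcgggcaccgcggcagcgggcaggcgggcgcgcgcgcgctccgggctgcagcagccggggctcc
Syt9 promoter, chr7:107370540-107370839, plus strand, higher in KU55933: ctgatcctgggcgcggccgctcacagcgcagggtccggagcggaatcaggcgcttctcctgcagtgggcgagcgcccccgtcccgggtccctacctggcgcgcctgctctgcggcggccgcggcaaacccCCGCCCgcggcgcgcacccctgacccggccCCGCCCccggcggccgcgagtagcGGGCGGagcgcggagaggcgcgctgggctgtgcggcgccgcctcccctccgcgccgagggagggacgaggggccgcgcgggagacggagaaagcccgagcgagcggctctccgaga
The Syt3 window had 66.3% GC and no GC box, and the Syt9 window 79.3% GC and 3 of them. Over all called genes with a listed promoter the order was the other way, with a median of 55.3% GC in 8 promoters of genes that rose and 63.3% in 5 of genes that fell. RefSeq listed 66 promoters for 52 of the 68 genes. Of these 66, 72.7% held a GC box on either strand, against 35.6% of all 32817 promoters. Their median GC content was also higher, 62.3% against 52.7%, and its part in the count of GC boxes was not tested. The cyclic AMP response element TGACGTCA was in 1.52% of the 66 and 1.79% of all promoters. A match in the letters is a description and no evidence of binding.

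Syt1, the fast calcium sensor of most forebrain synapses, had 1530, 1447, 1412 and 1332 CPM in vehicle and 1808, 1528, 1539 and 1471 CPM in KU55933. Its groups overlapped and it was not called (log2 change 0.15 ± 0.08 SE, adjusted p = 0.209 by edgeR). Syt7, a slow sensor linked to facilitation and asynchronous release, had 378, 464, 425 and 536 CPM in vehicle and 324, 403, 351 and 377 CPM in KU55933. It narrowly missed the threshold, at a log2 change of -0.31 ± 0.11 (SE, adjusted p = 0.0658 by edgeR). Among the calcium-binding genes not called, Syt6 had its outlying value in KU55933 1, 16.8 CPM against 6.97 to 9.22 CPM in the other 7 libraries.

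Of the 8 tested synaptotagmins of the other group, those that bind calcium weakly or not at all or are less well known, only Syt4 rose and edgeR called none lower. That was 12.5% called, against 21.6% of all genes. Syt4, which sits on dense-core and other vesicles and is induced by activity, had 176, 146, 139 and 120 CPM in vehicle 1 to 4 and 233, 201, 196 and 185 CPM in KU55933 1 to 4. All KU55933 libraries were above the highest vehicle library, and Syt4 rose from 145 ± 23.2 to 204 ± 20.7 CPM (SD, log2 change 0.49 ± 0.12 SE, adjusted p = 0.015 by edgeR). It lost the call without vehicle 3 (adjusted p = 0.0513). With the offset its log2 change was 0.28 ± 0.10 (SE, adjusted p = 0.205), and at 40.7% it had the lowest GC content of the 65 genes. Its relative Syt11, which binds no calcium, was not called, with means of 823 ± 61.4 CPM for vehicle and 824 ± 72.3 CPM for KU55933 (SD, n = 4 per group, log2 change 0.00, interval -0.18 to 0.19).

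**Figure D2:**
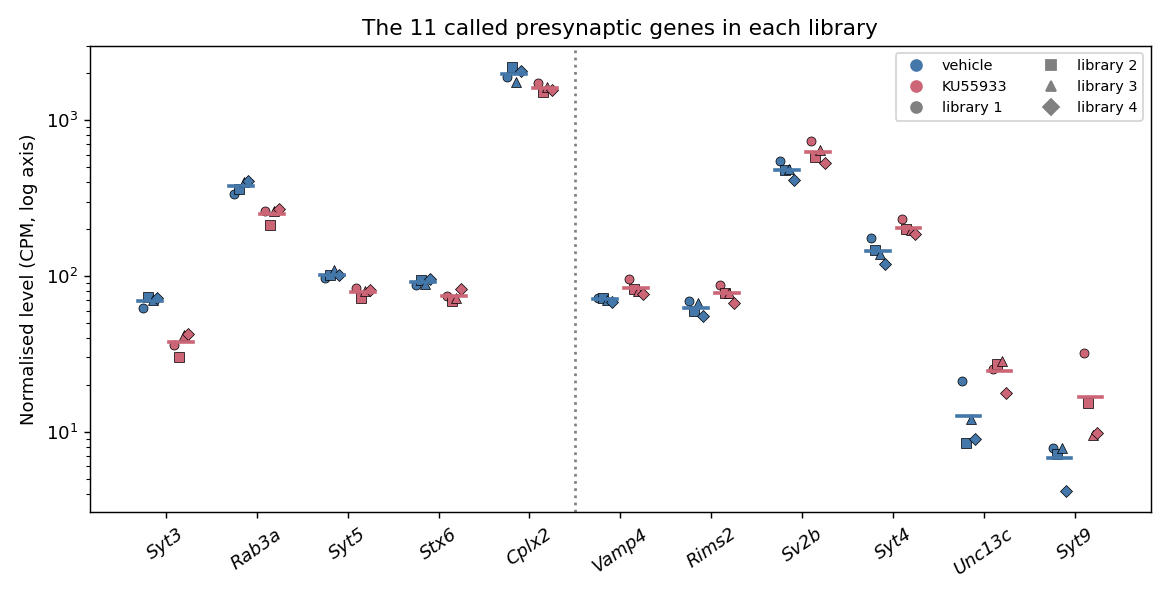
Normalised level (CPM, log axis) of the 5 genes that fell (left of the dotted line) and the 6 that rose, in each library; horizontal bars are group means and marker shapes give the library number. The groups are separate for Syt3, Rab3a, Syt5, Stx6, Cplx2, Vamp4, Syt4 and Syt9 and overlap for Rims2, Sv2b and Unc13c.

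Priming and clamping factors moved in both directions. Of 11 tested genes, Unc13c and Rims2 rose, Cplx2 fell and 8 were not called, with a median log2 change of 0.16. Thus 27.3% were called, against 21.6% of all genes. Cplx2, the complexin gene with the higher level here at 964 ± 82.4 TPM in vehicle, had 1908, 2194, 1756 and 2068 CPM in vehicle 1 to 4 and 1734, 1518, 1626 and 1564 CPM in KU55933 1 to 4. The groups were separate by a narrow gap, and Cplx2 fell 1.23-fold (log2 change -0.30 ± 0.08 SE, adjusted p = 0.0298 by edgeR). The call was lost without vehicle 2 or 4 or KU55933 2 or 3 (adjusted p up to 0.0969). Cplx1, at 512 ± 23.8 TPM in vehicle, was not called, with a log2 change of -0.15 ± 0.09 (SE), and 0.13 with the offset.

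Unc13c, the Munc13-3 gene best known from the cerebellum, had 21.2, 8.53, 12.1 and 8.95 CPM in vehicle and 25.4, 27.3, 28.3 and 17.7 CPM in KU55933. Vehicle 1 lay within the KU55933 range and the other vehicle libraries below it. Unc13c rose 1.94-fold (log2 change 0.95 ± 0.29 SE, adjusted p = 0.0469 by edgeR), and its log2 change was 1.33 without vehicle 1. The call ended without vehicle 2, 3 or 4 or KU55933 1, 2 or 3. The offset left a log2 change of 0.77 ± 0.26 (SE, adjusted p = 0.202 by edgeR), and with vehicle 1 left out as well Unc13c was called. Of 7 markers of thalamic and other subcortical neurons edgeR called 3 higher, against 6.92% of all genes, and 0 with the offset. Their summed levels overlapped, at 83.2 to 109 CPM in vehicle and 101 to 148 CPM in KU55933. The part of these markers in the values of Unc13c and Syt9 was not tested.

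Rims2, a RIM gene, had 69, 59.3, 66.8 and 55.4 CPM in vehicle and 87.7, 78.1, 77.4 and 67.4 CPM in KU55933, and rose 1.24-fold (adjusted p = 0.0453 by edgeR). KU55933 4 lay inside the vehicle range, and the call was lost without vehicle 2, 3 or 4 or KU55933 1, 2 or 3. Rims1, its more abundant relative, averaged 152 ± 5.60 CPM under vehicle and 167 ± 21.3 CPM under KU55933 (SD, n = 4 per group) and was not called (log2 change 0.13 ± 0.09 SE). Unc13a, the main Munc13 gene of the forebrain, had 352, 402, 435 and 494 CPM in vehicle and 272, 341, 329 and 373 CPM in KU55933. It missed the threshold, at a log2 change of -0.36 ± 0.12 (SE, adjusted p = 0.0526 by edgeR), and was called without vehicle 1 or KU55933 4.

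Of the 14 proteins of the vesicle membrane or bound to it, Rab3a fell, Sv2b rose and 12 were not called, with a median log2 change of -0.08. Thus 14.3% were called, against 21.6% of all genes. Rab3a encodes the GTPase that tethers vesicles to RIM at the active zone. Its level was 335, 364, 402 and 409 CPM in vehicle 1 to 4 and 261, 212, 260 and 271 CPM in KU55933 1 to 4. The highest KU55933 library was well under the lowest vehicle library, and Rab3a fell from a mean of 377 ± 34.7 to one of 251 ± 26.3 CPM (SD of 4 libraries each). Its log2 change was -0.59 ± 0.10 (SE, adjusted p = 0.00228 by edgeR), and the call held with any single library left out (adjusted p up to 0.011). With the GC and length offset the log2 change was -0.26 ± 0.07 (SE, unadjusted p = 0.00497 in the edgeR fit over all genes, adjusted p = 0.115).

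Rab3c, a neuronal paralog of Rab3a, lay on the other side, with 572, 440, 517 and 374 CPM in vehicle and 759, 583, 616 and 539 CPM in KU55933. It was not called (log2 change 0.39 ± 0.14 SE, adjusted p = 0.0709 by edgeR). Per length, the ratio of Rab3c to Rab3a was 0.293, 0.203, 0.22 and 0.156 in vehicle 1 to 4 and 0.484, 0.454, 0.394 and 0.329 in KU55933 1 to 4. This ratio was thus higher in every KU55933 library than in any vehicle library. The GC content of the pair was 42.1% for Rab3c and 56.2% for Rab3a.

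Ratios of TPM in 4 other paralog pairs did not overlap between the groups either. Syt5 over Syt1 was 0.234 ± 0.0257 in vehicle and 0.139 ± 0.012 in KU55933, and Syt3 over Syt7 0.39 ± 0.0441 and 0.266 ± 0.047 (SD, n = 4 per group). Syt4 over Syt11 was 0.191 ± 0.0185 and 0.269 ± 0.0139, and Rims2 over Rims1 0.403 ± 0.0437 and 0.485 ± 0.017. Ratios of Sv2b to Sv2a, Vamp2 to Vamp1, Syn2 to Syn1, Cplx2 to Cplx1 and Unc13c to Unc13a overlapped. In each of the 4 pairs without overlap, as for Rab3c and Rab3a, the gene richer in GC was relatively lower in KU55933. GC content was 57.4% for Syt5 and 46.1% for Syt1, and 60.4% for Syt3 and 55.4% for Syt7. It was 45.5% for Rims2 and 47.2% for Rims1, and Syt4, at 40.7%, lay below Syt11. The part of GC content in these ratios was not tested. How often ratios of other gene pairs do not overlap was not counted. All these ratios are descriptions of pairs chosen with the gene results known, and carry no test.

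Sv2b, a vesicle glycoprotein gene, had 545, 477, 487 and 413 CPM in vehicle and 740, 581, 640 and 530 CPM in KU55933, and rose (log2 change 0.37 ± 0.11 SE, adjusted p = 0.0398 by edgeR). KU55933 4 lay within the vehicle range, and the call was lost without vehicle 2, 3 or 4 or KU55933 1, 2 or 3. Sv2a, the family member present in nearly all synapses, was not called, at 449 ± 24.0 and 432 ± 30.6 CPM (SD, n = 4 per group). Syp, the synaptophysin gene and a standard synapse marker, had 1446, 1489, 1436 and 1371 CPM in vehicle and 1600, 1258, 1399 and 1438 CPM in KU55933. Its KU55933 values lay on both sides of the vehicle range, with a log2 change of -0.01 (interval -0.19 to 0.17), and 0.32 ± 0.09 (SE, adjusted p = 0.13 by edgeR) with the offset. The synapsin genes Syn1 and Syn2 had log2 changes of -0.17 and 0.18, neither called.

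Among the 18 tested SNAREs of other membranes, Vamp4 rose, Stx6 fell and 16 were not called, so that 11.1% were called, against 21.6% of all genes. The groups did not overlap in 33.3% of the 18, against 26.7% of all genes. Stx6 and Vamp4 encode partners in SNARE bundles of the trans-Golgi network and endosomes, and they moved in opposite directions. Stx6 had 87.8, 94.8, 89.5 and 96.3 CPM in vehicle and 74.7, 69, 72 and 82.9 CPM in KU55933, a 1.23-fold fall (log2 change -0.30 ± 0.08 SE, adjusted p = 0.0186 by edgeR). It lost the call without vehicle 2 or 4 (adjusted p up to 0.0584). Of the 65 genes Stx6 had the smallest adjusted p under the offset, 0.0808 by edgeR, and its log2 change there, -0.28 ± 0.07 (SE), was nearly the one without it. Its GC content was 51.9%, and from 50 to 55% GC the offset moved the median of all genes only from -0.05 to 0.00. Vamp4 had 72.5, 72.1, 70.3 and 68.4 CPM in vehicle and 95.8, 83, 80.7 and 76.3 CPM in KU55933, a 1.19-fold rise (adjusted p = 0.0485 by edgeR). It was called in 1 of the 8 fits that left out a library, and its offset log2 change was 0.06.

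Read against GC content, the genes that rose and those that fell lay in separate ranges. Of 9 tested genes below 45% GC 2 rose, and of 18 from 45 to 50% GC 4 rose, while edgeR called none of these lower. Of 21 genes from 50 to 55% GC 2 fell, and of 17 at or above 55% 3 fell, with none called higher. The share of all genes called in each range was not counted. Their median log2 change also fell from range to range, at 0.22, 0.12, -0.05 and -0.43. This order is thus not particular to the release genes. In the 9 genes below 45% GC the median log2 change was 0.20, close to the 0.22 of all genes in that range. In the 17 genes at or above 55% it was -0.17, while all genes of that range had -0.43. Between GC content and log2 change, Spearman's rho was -0.59 and Pearson's r -0.53 across the 65 genes, against -0.71 and -0.58 across 15470 genes. Genes share the same 8 libraries and are not replicates, so no p is given. With the offset rho was 0.17 for the 65 genes and -0.02 for all genes. The median log2 change at or above 55% GC was then 0.15 for the 17 genes and -0.00 for all genes of that range.

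**Figure D3:**
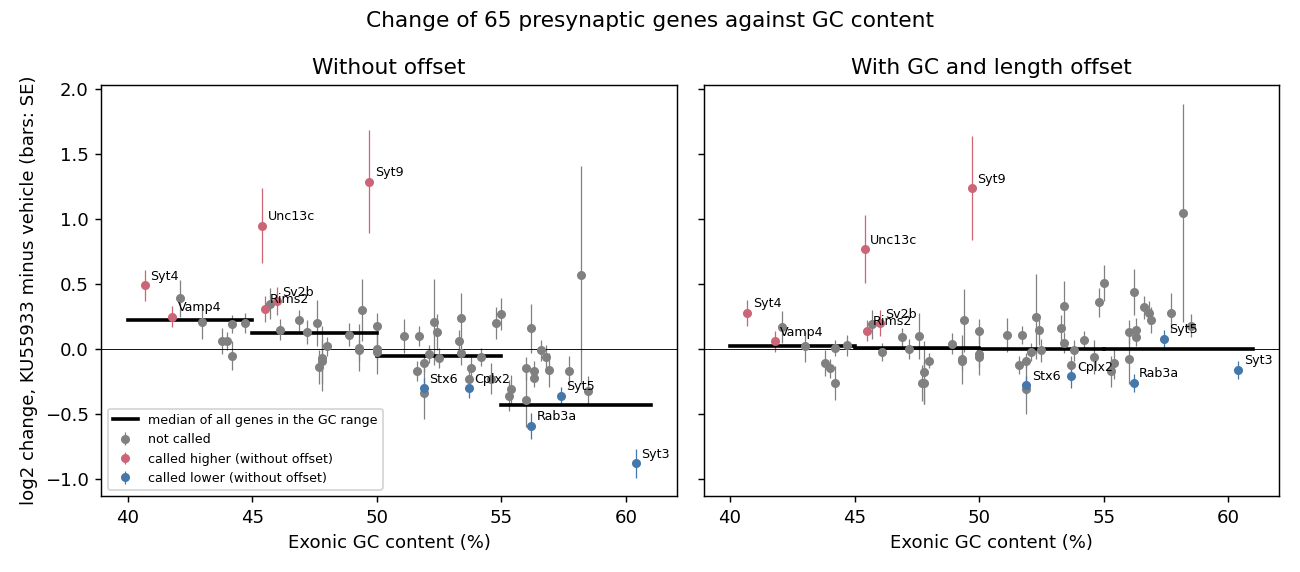
Log2 change (KU55933 minus vehicle, bars SE) of the 65 tested genes against exonic GC content (%), without (left) and with (right) the offset for each library's GC and length trend. Black bars are medians of all genes in each GC range, and colours mark the genes called without the offset. The fall with GC content on the left (rho -0.59) is absent on the right, where rho is weakly positive (0.17) and Syt9 and Unc13c stay high.

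Partners of the release machinery outside the 68 genes were read from lists of 74 genes, of which 73 were tested. Of these 5 rose, 19 fell and 49 were not called by edgeR, so that 32.9% were called, against 21.6% of all genes (6.92% higher and 14.6% lower), and with the GC and length offset it called 0, with an unadjusted p under 0.05 in 10. Fusion and priming partners had 1 rise and 2 falls among 20 genes (15% called), and scaffold and calcium channel genes of the active zone 0 rises and 6 falls among 21 (28.6%). Vesicle transporters and other vesicle proteins had 1 rise and 4 falls among 13 (38.5%), and endocytosis genes 3 rises and 7 falls among 19 (52.6%). The rises numbered 1 without vehicle 2, 3 or 4 or KU55933 2, 2 without KU55933 1, 11 without vehicle 1 and 12 without KU55933 4, and the falls 12 without vehicle 4.

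The largest partner falls were those of Nrxn2, Lin7b and Ap2s1. Nrxn2, a neurexin gene that links the active zone to the postsynaptic side, had 259, 221, 299 and 291 CPM in vehicle and 138, 114, 161 and 116 CPM in KU55933. It fell (log2 change -1.02 ± 0.13 SE, adjusted p = 0.000792 by edgeR), but had 63.1% GC and an offset log2 change of 0.04. Lin7b, a scaffold gene, had 21.5, 26.6, 27.1 and 27.4 CPM in vehicle and 10.8, 10.5, 15.8 and 16.2 CPM in KU55933, and fell (log2 change -0.94 ± 0.16 SE, adjusted p = 0.00279 by edgeR). With the offset its log2 change was -0.37 ± 0.09 (SE, adjusted p = 0.0748 by edgeR), and it was no longer called. Ap2s1, the small subunit of the AP-2 clathrin adaptor, fell by 0.81 on the log2 scale, against -0.17 with the offset.

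Slc17a6, the vesicular glutamate transporter gene VGLUT2 of subcortical neurons, had the largest partner rise. Its level was 10.9, 6.43, 6.81 and 4.39 CPM in vehicle and 21.7, 18.7, 12.3 and 16.4 CPM in KU55933, a log2 change of 1.28 ± 0.27 (SE, adjusted p = 0.0112 by edgeR). Slc17a6 is also 1 of the 3 subcortical markers called higher. Slc17a7, the main vesicular glutamate transporter gene of hippocampal pyramidal cells, fell from 1480 ± 66.1 to 1176 ± 98.8 CPM, and Slc32a1, the vesicular GABA transporter gene, from 47.8 ± 6.53 to 29.4 ± 4.10 CPM (SD, 4 libraries each), at offset log2 changes of 0.14 and 0.21. Dnm3, a dynamin gene, and Stxbp5l, a tomosyn gene, rose with log2 changes of 0.36 and 0.32, and both calls were lost when KU55933 1 or 2 or vehicle 2, 3 or 4 was left out.

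Transcripts gave a change that the gene totals hide. Per transcript, edgeR called 4 of 224 tested release transcripts higher and 16 lower, 8.93% in all, against 6.76% of all 45343 transcripts (1.06% higher and 5.7% lower). The higher count was 9 without vehicle 1, 2 without KU55933 1 or 2 and 1 without KU55933 3. The lower count was 12 without vehicle 2 and 6 to 10 without any other single library, and the 2 counts were 2 and 8 with RLE scaling and 2 and 2 with the offset. The plainest case was Syngr3, which encodes synaptogyrin-3, a vesicle membrane protein. The gene as a whole was not called, averaging 129 ± 8.67 CPM under vehicle and 115 ± 10.3 CPM under KU55933 (SD, n = 4 per group, log2 change -0.17, adjusted p = 0.167 by edgeR). Its 2 listed transcripts share 1730 bases and differ in the first exon.

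The coding transcript ENSMUST00000007236 starts in an exon of 235 bases with 69.8% GC, and the transcript ENSMUST00000130936, annotated as processed and without a reading frame, in an exon of 106 bases with 46.2% GC. The alternative exon is shown because its bases tell that transcript from the coding one, and it is from GENCODE mouse release 21.
Syngr3 alternative first exon, bases 1 to 106: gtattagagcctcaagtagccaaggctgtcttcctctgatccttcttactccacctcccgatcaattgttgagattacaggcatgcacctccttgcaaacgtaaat
In vehicle 1 to 4 the coding transcript had 145, 135, 128 and 116 CPM, and the alternative transcript had 0 counts in all 4. In KU55933 1 to 4 the coding transcript had 33.3, 30.1, 60.3 and 38.2 CPM and the alternative transcript 88.7, 68.7, 57.3 and 80.1 CPM. Thus all estimated counts of Syngr3 lay on the coding transcript in every vehicle library, while the alternative transcript took 72.7%, 69.5%, 48.7% and 67.7% of them in the KU55933 libraries.

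A floor of 3 counts per library allows a share of 0.0472% to 0.0627% in vehicle, so the alternative transcript was at least 1013-fold higher in KU55933 (adjusted p = 0.000444 by edgeR). The coding transcript fell at a log2 change of -1.70 ± 0.21 (SE, adjusted p = 0.00497). Both calls held with any single library left out and with the GC and length offset, where the coding transcript was lower by edgeR too (log2 change -1.16 ± 0.17 SE, adjusted p = 0.017). The offset follows the GC content and length of whole transcripts, so it cannot correct for the GC content of the first exon alone. The part of that exon's GC content in the shift was not tested. These counts are Salmon's estimates of how to divide reads over shared sequence, and an estimate of exactly 0 can arise where few reads tell the transcripts apart; that was not tested here. Such a pattern was rare but not confined to Syngr3: 11 of the 45343 tested transcripts, 0.0243%, had 0 counts in all vehicle libraries and at least 10 CPM in all KU55933 libraries, and 13, 0.0287%, the reverse.

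**Figure D4:**
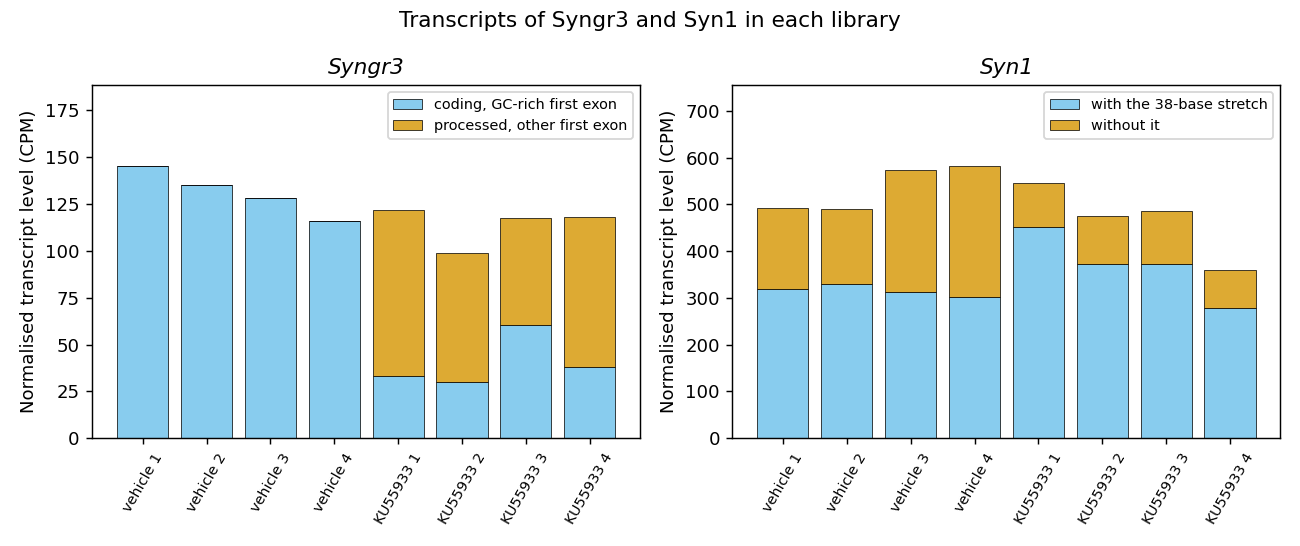
Normalised level (CPM) of 2 transcripts of Syngr3 (left) and of Syn1 (right) in each library, stacked. For Syngr3 the processed transcript with the other first exon (yellow) is at 0 in all 4 vehicle libraries and between 57.3 and 88.7 CPM in KU55933, and for Syn1 the transcript without the 38-base stretch (yellow) is lower in every KU55933 library.

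Syn1, the synapsin I gene, showed a smaller shift between 2 coding transcripts, chosen after their values were seen. ENSMUST00000115345 had 172, 161, 261 and 280 CPM in vehicle and 94.2, 103, 113 and 82.5 CPM in KU55933. It fell from 40.3% ± 7.62 to 21.3% ± 2.76 of the estimated counts of the gene (SD, n = 4 per group), and the log2 change in level was -1.15 ± 0.20 (SE, adjusted p = 0.0135 by edgeR). The call ended without KU55933 1 or 2 (adjusted p up to 0.0628), and with the offset (log2 change -0.42 ± 0.20 SE, adjusted p = 0.417). The main transcript ENSMUST00000081893, with 320, 330, 313 and 301 CPM in vehicle and 452, 373, 373 and 278 CPM in KU55933, was not called. It holds 38 bases of exon 13 that the other lacks, in capitals here with 20 bases on each side, and these bases are what tells the pair apart.
Syn1 exon 13 stretch: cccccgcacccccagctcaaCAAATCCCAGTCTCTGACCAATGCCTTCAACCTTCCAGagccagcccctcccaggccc

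Syt7 had a minor transcript, ENSMUST00000169121, with 3.2, 2.06, 6.67 and 7.47 CPM in vehicle and 0 counts in all KU55933 libraries, at least 58.1-fold lower against the floor of 3 counts per library (adjusted p = 0.00594 by edgeR, and 0.0117 with the offset). It made up 1.06% ± 0.529 of the gene's estimated counts in vehicle (SD, n = 4). It carries an exon of 228 bases that the main Syt7 transcript lacks, shown because its GC content of 73.2% is far above that of the gene, 55.4%.
Syt7 exon 5 of ENSMUST00000169121: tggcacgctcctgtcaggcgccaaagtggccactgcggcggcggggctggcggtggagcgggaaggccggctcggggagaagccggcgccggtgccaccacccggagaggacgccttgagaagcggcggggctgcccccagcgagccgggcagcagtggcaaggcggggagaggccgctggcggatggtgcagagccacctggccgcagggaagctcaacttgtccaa
As for Syngr3, these are Salmon's estimates over shared sequence, so the bound is on the estimated counts, and whether the exact zeros come from the division of reads was not tested. The offset follows whole transcripts here too, and the part of this exon's GC content in the fall was not tested. The main Syt7 transcript ENSMUST00000076968 was not called (log2 change -0.30 ± 0.11 SE, adjusted p = 0.161 by edgeR).

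Other called transcripts followed their genes or were small parts of them. The GC-rich Syt5 transcript ENSMUST00000206023 (65.2% GC) fell from 7.92 ± 0.838 to 1.78 ± 0.403 CPM and the main Rab3a transcript ENSMUST00000034301 from 262 ± 16.2 to 162 ± 18.7 CPM (SD, n = 4 per group). Rises were those of the Rims1 transcript ENSMUST00000115273 (log2 change 0.51 ± 0.11 SE), the Stx7 transcript ENSMUST00000020174 (0.33 ± 0.08) and the Stx5a transcript ENSMUST00000177322 (0.64 ± 0.13). The last is annotated as a target of nonsense-mediated decay. It had 7.87, 6.52, 7.94 and 8.25 CPM in vehicle and 11, 11.9, 12.7 and 12.1 CPM in KU55933, and was called with the GC and length offset too (log2 change 0.80 ± 0.13 SE, adjusted p = 0.024 by edgeR). Its call was lost without KU55933 3 or 4 or vehicle 3 when no offset was used, as were those of the Rims1 and Stx7 transcripts in most fits that left out a library. With the offset, 2 release transcripts were called higher, those of Syngr3 and Stx5a, and 2 lower, those of Syngr3 and Syt7, at a background of 2.06% (1.05% higher and 1.01% lower).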

How the data were processed

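The 8 hippocampal libraries were grouped by the labels' treatment field. The deposited values are estimated counts of transcripts, obtained by the authors with Salmon 1.4.0 per the submitters' processing notes, and they are whole numbers. Those notes also name GRCm39, FastQC 0.11.9 and DESeq2 1.32.0, with rounding and filters not given in the sources used here. All labels say hippocampus, but the library text states input amounts for hypothalamus and PFC, which is not resolved here. Floors cover counting error only, and 3 counts were used for each.

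Transcripts were summed per gene, filtered with filterByExpr, scaled by TMM and tested with edgeR 4.0.16 (two-sided quasi-likelihood F test, robust, R 4.3.3) with Benjamini-Hochberg adjustment over all 15481 genes, at 0.05. The same was done for 45343 transcripts. GC content and length came from GENCODE mouse release 21 transcripts, which matched 99.7% of the table. The offset took each library's splines on GC (6 degrees of freedom) and length (5) from the counts. Alternatives were RLE and upper-quartile scaling, other count filters, DESeq2 1.42.0, limma-voom (limma 3.58.1), replicate number as a block, and libraries left out. A GC offset alone, leaving out vehicle 1 and 2, and the offset with libraries left out were added after seeing the data. The tests were tested on simulated data. No library was a duplicate of another.

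Genes named were a core of 16 genes (1 is not reported here), called genes (up to 8 in each direction), genes called with the offset, the 3 largest partner changes in each direction, the top transcript of each core gene and the 4 called transcripts with the smallest adjusted p in each direction. Others named were chosen after their values were seen. The genes and lists were chosen with earlier results of these data known.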

Additional observations from a re-analysis of the deposited data

Results flagged for a closer look

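Among the 52 named genes and transcripts, 104 groups of 4 libraries were searched for a single library far from the other 3, and 4 were found. Chance alone gives about 1 in 20 in independent groups, so the number found gives no ground to read the 4 as more than chance. It cannot show that they are chance either. The groups come from the same 8 libraries and include genes along with their own transcripts. Snap25 had 2479 CPM in KU55933 1, against 1841 to 1912 CPM in the other KU55933 libraries. The Stx7 transcript ENSMUST00000020174 had 110 CPM in the same library, against 94.2 to 95.2 CPM. Stxbp5l had 57.6 CPM in vehicle 1, against 42.8 to 44.9 CPM in the other vehicle libraries. Lin7b had 21.5 CPM in vehicle 1, against 26.6 to 27.4 CPM. Choroid plexus markers were high in KU55933 1 (1216 CPM), but also in KU55933 2 (1284 CPM), which was not the outlying library in any of the 4. Oligodendrocyte markers were highest in vehicle 1 (7852 CPM, against 3466 to 5622 CPM in the other 7 libraries). The part of these markers in the 4 values was not tested.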

How the results depend on the processing

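Of the 11 release genes called, Syt3, Rab3a and Syt5 were called in all 8 fits that left out a library, and these 3 alone without KU55933 1 and 2 together. With RLE scaling, upper-quartile scaling, a filter of 1 CPM in 4 libraries, DESeq2 or the replicate block all 11 were called in the same direction, while limma-voom left out Syt9 and Vamp4 and no count filter left out those 2, Rims2 and Unc13c. Counts of release genes called higher were 2 with no count filter, 10 by DESeq2, 0 with the GC and length offset or the GC offset alone, 0 without KU55933 1 and 2, 3 without vehicle 1 and 2, and 0 to 9 with 1 library left out. Counts lower were 8 with the 1 CPM filter, 10 by DESeq2, 0 with either offset, 3 without KU55933 1 and 2, and 3 to 8 with 1 library left out. Partner counts were 8 higher with upper-quartile scaling, 3 with no filter and 10 by DESeq2, 0 higher and 0 lower with either offset, 0 higher and 9 lower without KU55933 1 and 2, 2 higher and 10 lower without vehicle 1 and 2, and 1 to 12 higher and 12 to 20 lower with 1 library left out. With the offset and 1 library left out, release genes numbered 0 to 3 higher and 0 lower, and partners 0 to 1 higher and 0 to 1 lower. Without KU55933 1 and 2 the offset fit called 0 in all of these, and without vehicle 1 and 2 it called 1 release gene and 2 partners higher and 0 lower in both. Release transcripts numbered 2 higher and 8 lower with RLE scaling, 2 and 2 with the offset, and 1 to 9 higher and 6 to 12 lower with 1 library left out. The causes were not tested.

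The labels number the libraries 1 to 4 in both groups. Deviations from the group means correlated at 0.29, 0.08, 0.04 and 0.20 between libraries 1 to 4 of the same number. Between libraries of different numbers the correlations ran from -0.22 to 0.11, and vehicle 3 correlated better with KU55933 2, at 0.08, than with KU55933 3. These values do not settle whether equal numbers pair the mice, and the main fit used no pairing. With the replicate block edgeR called 10 release genes higher and 8 lower, 10 partners higher and 23 lower, and 3 release transcripts higher and 8 lower. With the block and the offset together it called 3 release genes higher and 1 lower, and 4 partners higher and 1 lower.

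The sign of the log2 change turned with the offset for Syt5 (0.08), Cplx1 (0.13), Snap25 (-0.11), Stx1a (0.18), Sv2a (0.07), Syn1 (0.28), Syp (0.32), Syt1 (-0.02) and Nrxn2 (0.04). With the block as well the values were 0.08, 0.13, -0.12, 0.18, 0.07, 0.26, 0.31, -0.02 and 0.04, and -0.01 for Rims1. It also turned for the main transcripts of Cplx1 (0.28), Snap25 (-0.02), Stx1a (0.42), Sv2a (0.20), Syp (0.51) and Vamp1 (0.15). RLE scaling turned those of Sv2a (0.00), Syp (0.05) and Vamp1 (0.07). Leaving out KU55933 1 and 2 turned Snap25 (-0.05) and Vamp2 (-0.02). Over the fits without 1 library the log2 change ran from -0.05 to 0.11 for Snap25, -0.07 to 0.04 for Syp and -0.01 to 0.13 for Vamp2. For main transcripts it ran from -0.06 to 0.16 for Snap25, -0.13 to 0.05 for Sv2a, -0.09 to 0.11 for Syp, -0.08 to 0.11 for Vamp1 and -0.02 to 0.15 for Vamp2.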

Other observations

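Some release genes that were not called had their largest values relative to the spread only after the GC and length offset. Vamp8, an endosomal SNARE gene, had 6.58, 6.83, 6.1 and 6.52 CPM in vehicle and 9.33, 7.95, 6.84 and 7.19 CPM in KU55933, with a log2 change of 0.27 without and 0.51 ± 0.14 (SE, adjusted p = 0.11 by edgeR) with the offset. Rims3, a short RIM gene, had offset values of 0.36 ± 0.11 (SE, adjusted p = 0.14), and Syngr1 of 0.28 ± 0.09 (adjusted p = 0.177 by edgeR). These genes were chosen after their values were seen.

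Unc13d, the Munc13-4 gene best known from blood cells, was near the limit of detection and split the vehicle libraries. It had 1.29 and 1.26 CPM in vehicle 1 and 3, 0.0247 and 0.0496 CPM in vehicle 2 and 4, and 0.761 to 1.17 CPM in KU55933. No other tested release gene had a standard deviation above its mean in vehicle.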
